A study of Homo sapiens with 4 samples.

Results

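The genes of polyamine synthesis, control and breakdown were compared between LNCaP cells that overexpress HOXD13 and LNCaP cells with an empty vehicle. The 10 genes are ODC1, AMD1, SRM, SMS, OAZ1, OAZ2, AZIN1, SAT1, SMOX and PAOX. They were taken by their symbol from a deposited table of 19205 genes, and all 10 were present in each library and had enough counts to be tested. LNCaP is an established human prostate cancer cell line that responds to androgen. The HOXD13 overexpression (OE) group and the empty vehicle (EV) group had 2 RNA-seq libraries each, and cells of both groups had been infected with lentivirus, selected with puromycin and grown in RPMI-1640 with fetal bovine serum, penicillin and streptomycin. HOXD13 is a posterior homeodomain protein that regulates transcription, and the series title puts its relation to SMAD1, BMP4 and metastasis at the centre of the study. Whether the libraries of a group came from separate cultures, and whether the infected cells were clones or a pool, is not given in the sources used here, so the p-values cover no more than the variation among these libraries, and that could be technical.

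HOXD13 itself had 88 and 104 expected counts in the OE libraries and 0 in each EV library. In FPKM, a level scaled by transcript length and library depth, it had 4.41 and 5.33 in OE. Total expected counts ranged from 6881110 to 8530487. Counts of replicate libraries were further apart than counting error alone gives (chi-square per degree of freedom of 1.76 in the OE pair and 1.57 in the EV pair), against 5.24 to 5.95 between libraries of different groups. All 12 luminal prostate markers were above 1 FPKM in each library. Their summed level was 5161 and 5271 FPKM in OE and 3766 and 3808 FPKM in EV, and most of the difference lay in KLK3, at 3140 and 3255 FPKM in OE and 2044 and 2074 FPKM in EV. HOXB13 went the other way, with 128 and 127 FPKM in OE and 139 and 134 FPKM in EV. The part of these differences in the results below was not tested. Markers of other cells had rows for 1 of 5 basal, 4 of 8 fibroblast, 6 of 7 leukocyte and 4 of 5 endothelial genes, and those with no row, KRT5, TP63, COL1A2, DCN and CDH5 among them, were not analysed here. The basal gene KRT14 had 3.78 and 3.36 FPKM in OE and 1.67 and 1.24 FPKM in EV. The 4 fibroblast markers summed to 6.48 to 6.89 FPKM in OE and 6.24 to 7.21 FPKM in EV, nearly all from COL1A1. The 6 leukocyte markers summed to 42.3 to 43.9 FPKM in OE and 37.5 to 41.4 FPKM in EV, mostly from LYZ, and the T cell gene CD3E was listed at 0 in all 4 libraries. The 4 endothelial markers summed to 4.15 to 4.31 FPKM in OE and 2.94 to 3.13 FPKM in EV.

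The polyamines putrescine, spermidine and spermine are small positively charged molecules that bind nucleic acids and are needed for growth, and the prostate is among the tissues that make and secrete the most of them. Ornithine decarboxylase, encoded by ODC1, makes putrescine. AMD1 makes the aminopropyl donor from S-adenosylmethionine, and the spermidine synthase SRM and the spermine synthase SMS add aminopropyl groups in turn. The antizymes OAZ1 and OAZ2 bind ornithine decarboxylase and send it to the proteasome, and AZIN1, an inactive relative of the enzyme, binds antizyme in its place. SAT1 acetylates spermidine and spermine, PAOX oxidises the acetylated products, and SMOX oxidises spermine directly. ODC1 is a textbook target of the transcription factor MYC through E-boxes, sites with the letters CACGTG.

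Transcripts of 3 of the 4 biosynthesis enzymes were lower in the OE cells, and SAT1, the acetyltransferase of breakdown, was higher. Of the 10 genes, 4 fell (ODC1, SRM, SMS and OAZ1), 1 rose (SAT1) and 5 did not pass the test. The test was edgeR's quasi-likelihood test over 14112 genes, and calls were made below an adjusted p (Benjamini-Hochberg) of 0.05, and all fold changes are log2 of OE over EV. Among all genes tested, 8.11% were called lower and 7.91% higher, together 16.0%. Abundant genes were called more often. Among the 1799 genes with a mean of at least 1000 counts, 50.9% were called and 31.2% were called lower, at a median log2 fold change of -0.06. Of the polyamine genes, 6 are that abundant, and 4 of these (66.7%) were called lower, a share over 6 genes that is given without a test. The median log2 fold change of the 10 genes was -0.08, against 0.00 over all genes tested. In CPM, which scales counts by library size, the OE libraries lay below both EV libraries for 5 of the 10 genes and above both for 2, and 3 overlapped; among all genes tested, 27.2% lay below and 27.7% above.

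**Figure D1:**
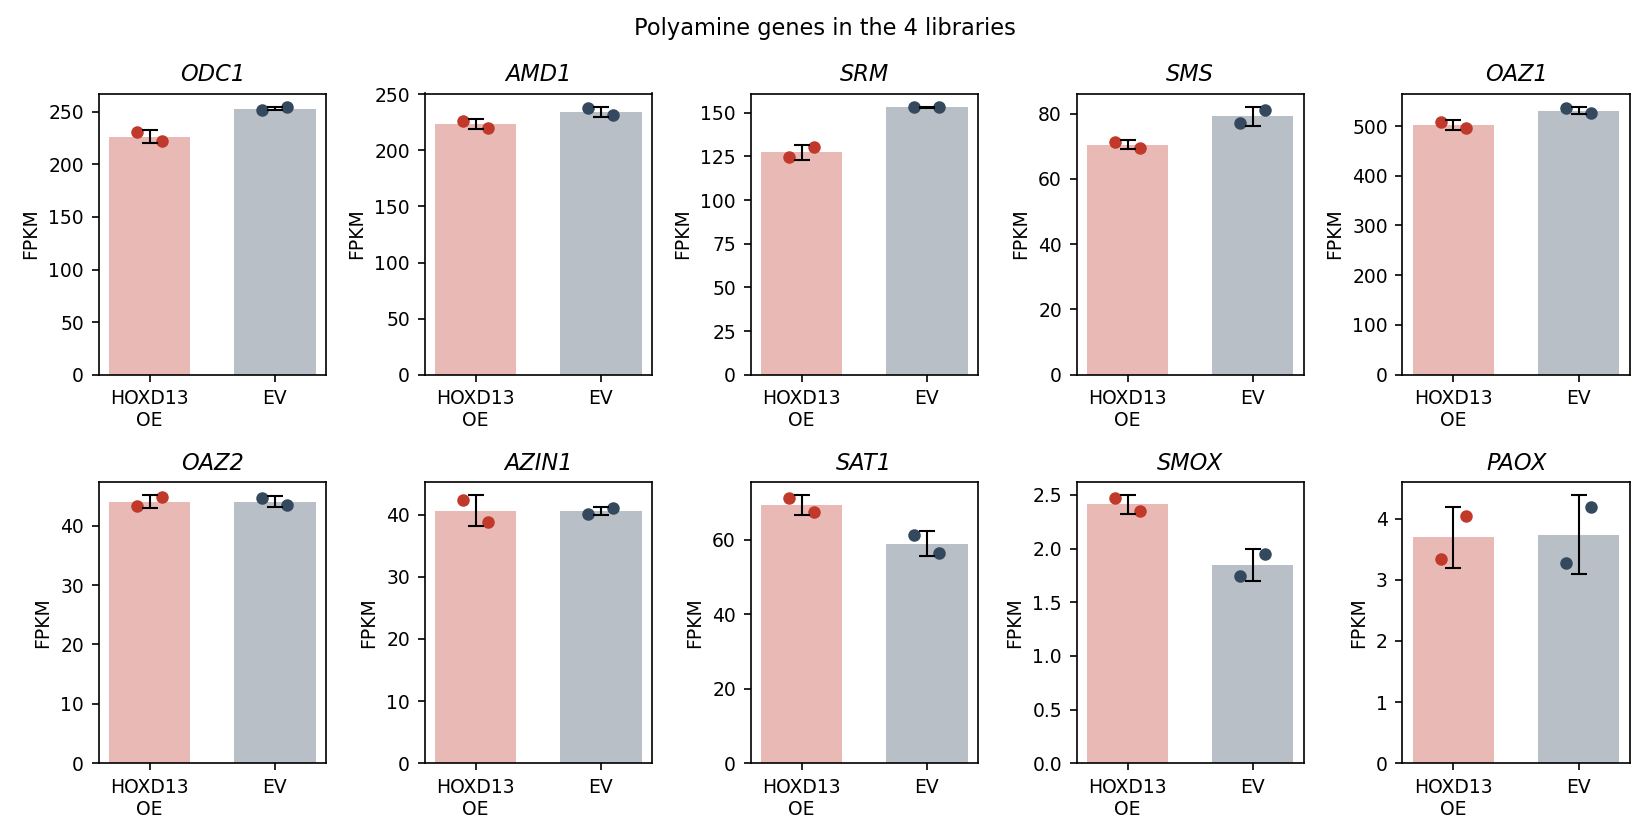
FPKM (vertical axes, from 0) of the 10 polyamine genes in the HOXD13 overexpression (OE) and empty vehicle (EV) libraries; points are libraries, bars are means and error bars are SD over the 2 libraries of a group. The points of the groups are separate for ODC1, AMD1, SRM, SMS, OAZ1, SAT1 and SMOX and overlap for OAZ2, AZIN1 and PAOX.

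ODC1, whose product makes putrescine, had 231 and 222 FPKM in the OE libraries and 252 and 254 FPKM in the EV libraries. Both OE libraries were below both EV libraries. The mean was 226 ± 6.38 FPKM in OE and 253 ± 1.71 FPKM in EV (SD, n = 2 each), and ODC1 fell by 11.4% (log2 fold change -0.17, SE 0.0340, 95% interval -0.24 to -0.10, edgeR adjusted p = 0.000410). SRM, which makes spermidine, had 124 and 130.4 FPKM in OE and 153 FPKM in each EV library. This was the clearest change among the 10 genes, a fall of 17.7% that left the groups far apart (log2 fold change -0.28, SE 0.0469, 95% interval -0.38 to -0.18, edgeR adjusted p = 5.78e-05). SRM was called lower, at an adjusted p under 0.05, under all 14 alternative settings tried. SMS, which makes spermine, had 71.5 and 69.5 FPKM in OE and 77.1 and 81.25 FPKM in EV. The groups did not overlap (log2 fold change -0.18, SE 0.0514, edgeR adjusted p = 0.0143). AMD1, whose product supplies the aminopropyl donor, had 226 and 220.3 FPKM in OE and 237 and 231 FPKM in EV. Both OE libraries were below both EV libraries, but AMD1 missed the threshold (log2 fold change -0.09, 95% interval -0.15 to -0.02, edgeR adjusted p = 0.0531). Only limma on FPKM ended the ODC1 call (on log2(FPKM + 1) adjusted p = 0.0733). SMS lost its call in 7 of 14 alternatives, among them the DESeq2 Wald test (adjusted p = 0.0730) and limma on log2(FPKM + 1) (0.109). It also lost its call without OE replicate 2 (log2 fold change -0.16) and without EV replicate 2 (-0.14). AMD1 was called in 5 of 14 alternatives, among them the fit without OE replicate 1 (0.0109).

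**Figure D2:**
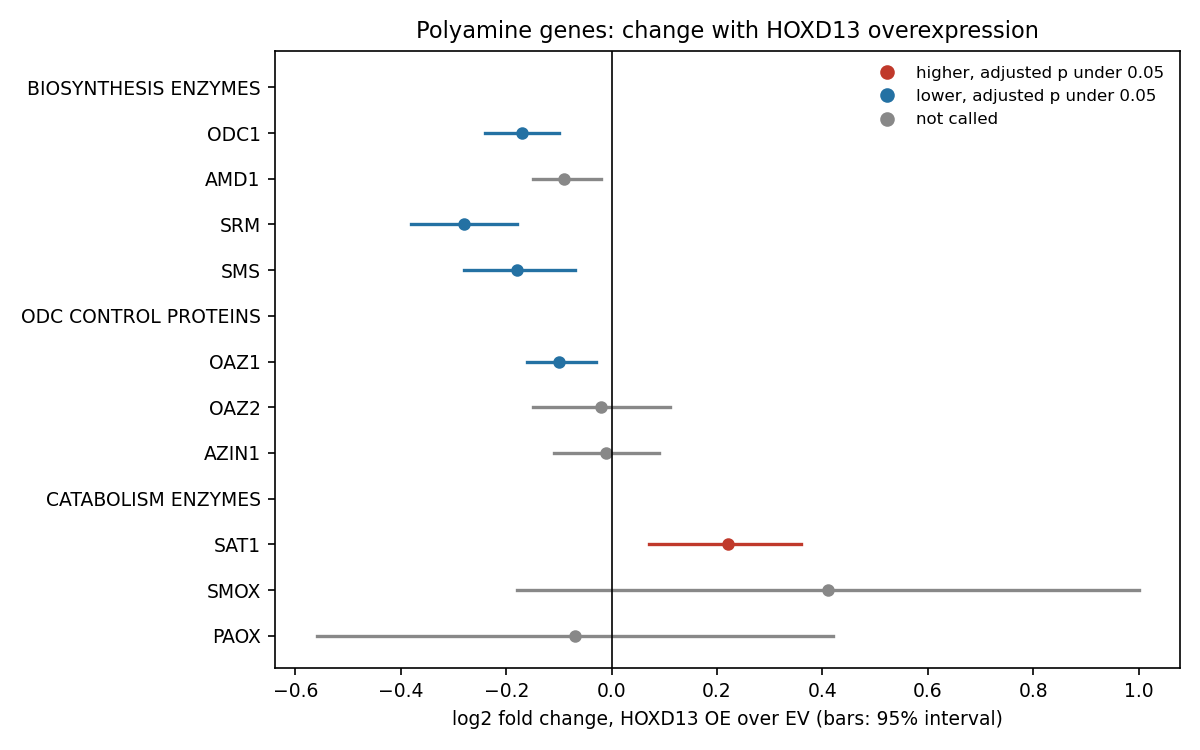
Log2 fold change of OE over EV (horizontal axis) for the 10 polyamine genes, grouped by role; points are edgeR estimates and bars are 95% intervals. The 4 biosynthesis genes lie between -0.28 and -0.09, and SAT1 lies at 0.22 with an interval above 0.

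Among the proteins that control ornithine decarboxylase, OAZ1 was slightly lower in OE and the others were nearly level. OAZ1, the most abundant of the 10 transcripts, had 509 and 495 FPKM in OE and 536 and 526 FPKM in EV. The groups did not overlap, at a fall of 6.5% (log2 fold change -0.10, SE 0.0324, edgeR adjusted p = 0.0386). OAZ2, the second antizyme gene, had 43.3 and 44.8 FPKM in OE and 44.7 and 43.4 FPKM in EV. AZIN1, the antizyme inhibitor gene, had 42.4 and 38.9 FPKM in OE and 40.2 and 41.0 FPKM in EV. The groups overlapped for both genes. The 95% interval of the log2 fold change was -0.15 to 0.11 for OAZ2 (edgeR adjusted p = 0.905) and -0.11 to 0.09 for AZIN1 (0.902), so a change of about the size seen for SRM lies outside both intervals. The OAZ1 call was lost in 9 of 14 alternatives, among them those without OE replicate 2 (adjusted p = 0.0976), EV replicate 1 (0.257) or EV replicate 2 (0.106). With the trends of expression and length removed from each library its log2 fold change was -0.02 (0.737).

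Of the genes of polyamine breakdown, SAT1 rose. SAT1 had 71.2 and 67.5 FPKM in OE and 61.4 and 56.6 FPKM in EV. Both OE libraries were above both EV libraries, at a mean of 69.4 ± 2.60 FPKM in OE and 59.0 ± 3.36 FPKM in EV (SD, n = 2 each). The rise was 16.4% (log2 fold change 0.22, SE 0.0712, 95% interval 0.07 to 0.36, edgeR adjusted p = 0.0314). SMOX, the spermine oxidase gene, had 2.47 and 2.35 FPKM in OE and 1.74 and 1.95 FPKM in EV, from 45 and 44 counts in OE and 29 and 28 counts in EV. Its groups did not overlap, but at this depth the log2 fold change of 0.41 had a 95% interval of -0.18 to 1.00 (edgeR adjusted p = 0.386). PAOX, the oxidase of acetylated polyamines, had 3.34 and 4.04 FPKM in OE and 3.28 and 4.19 FPKM in EV. Its groups overlapped, with a 95% interval of -0.56 to 0.42 (adjusted p = 0.895). The SAT1 call was lost in 6 of 14 alternatives, among them those without OE replicate 1 (adjusted p = 0.149), EV replicate 1 (0.0539) or EV replicate 2 (0.244), and with the DESeq2 Wald test (0.150). The log2 fold change of SAT1 was 0.17 to 0.30 over the alternatives. They reuse the same libraries, whose groups did not overlap for SAT1, so a reversal was hardly possible.

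Since FPKM is scaled by transcript length, levels can be set side by side between genes. OAZ1 stood highest in every library, followed by ODC1 and AMD1, then SRM, then SMS and SAT1, then OAZ2 and AZIN1, with PAOX and SMOX far below. ODC1 and AMD1 were each above at least 98.8% of all genes in every library, and SMOX was above 37.1% to 37.5% of genes in OE and 34.7% to 35.7% in EV. Within every library ODC1 was above AMD1, at a ratio of 1.02 and 1.01 in OE and 1.06 and 1.1 in EV. SMS was also above SAT1 within every library. In OE SMS had 71.48 and 69.54 FPKM against 71.21 and 67.54 FPKM for SAT1. In EV SMS had 77.11 and 81.25 FPKM against 61.36 and 56.61 FPKM. The ratio of SAT1 to ODC1 in FPKM was 0.308 and 0.304 in OE and 0.244 and 0.223 in EV. The summed level of the 4 biosynthesis enzymes was 8.48 and 8.69 times that of the 3 breakdown enzymes in OE and 10.8 and 11.5 times in EV. The ratio of OAZ1 to ODC1 moved less, at 2.20 and 2.23 in OE and 2.13 and 2.07 in EV. The ratios are given without a test. These are bulk samples, in which fewer cells of a kind and less RNA per cell cannot be told apart.

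The size of these changes stood among those of many genes. The log2 fold change of SRM was above that of 6.51% of all genes tested, that of ODC1 above 16.7%, and that of SAT1 above 80.7%. Fold changes also ran with abundance. In 10 bins of genes by mean CPM, the lowest bin had a median log2 fold change of 0.145 and the highest one of -0.06. The median was -0.02 or lower in every bin from bin 6 up. ODC1, AMD1 and OAZ1 lie in the range of the most abundant genes, where the median is below 0. SRM, SMS and AZIN1 also average at least 1000 counts, a class with a median of -0.06. With trends of expression and length removed, the log2 fold change of SRM went from -0.28 to -0.20. That of ODC1 went from -0.17 to -0.13 and that of SAT1 from 0.22 to 0.30. That of OAZ1, with a length of 1146 bases, went from -0.10 to -0.02. That of AMD1, with 3416.39 to 3419.9 bases, stayed at -0.09. Expression and length were removed together, and the part of each was not tested. With trends of expression and length removed, ODC1, SRM and AMD1 (adjusted p = 0.0404) were called lower and SAT1 higher, and SMS (0.0956) and OAZ1 (0.737) were not called.

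**Figure D3:**
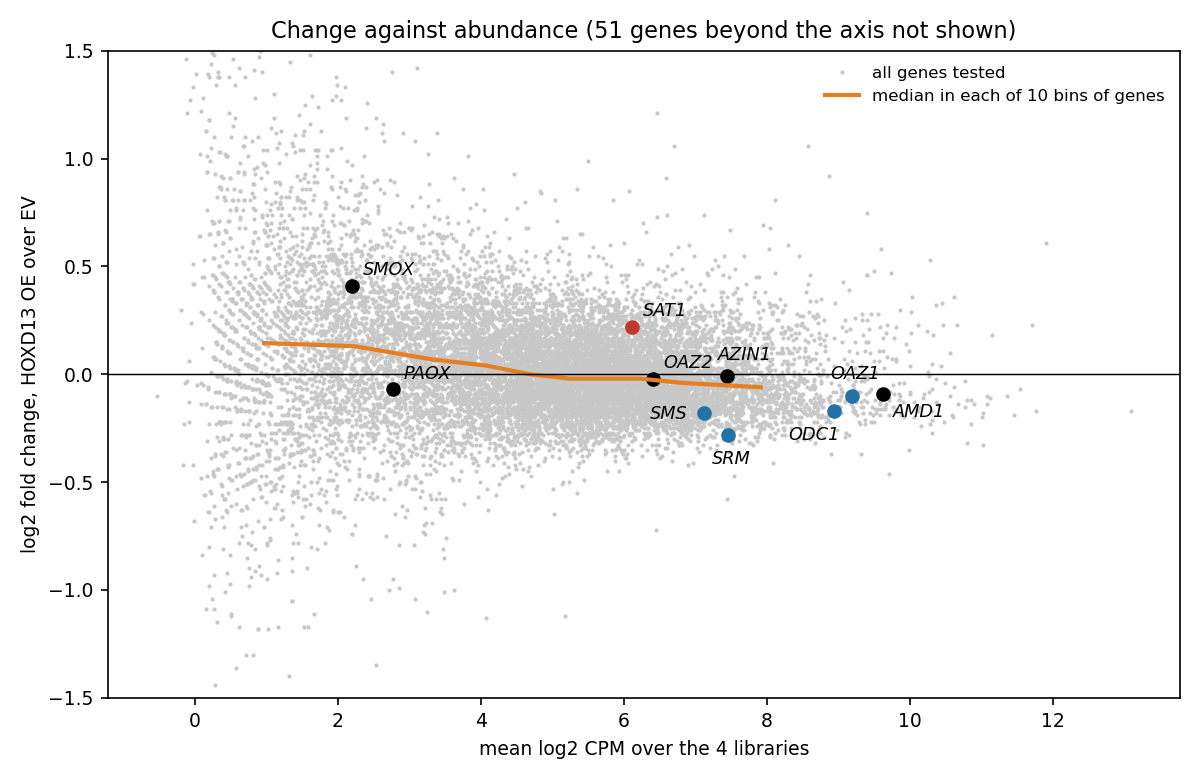
Log2 fold change of OE over EV (vertical axis) against mean log2 CPM over the 4 libraries (horizontal axis) for all genes tested (grey); 51 genes lie beyond the vertical axis. Polyamine genes called higher are red, those called lower blue and those not called black, and the line joins the medians of 10 bins, which run from 0.145 in the lowest bin to -0.06 in the highest.

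MYC, the transcription factor best known for driving polyamine synthesis, was lower in the OE cells. It had 78.55 and 76.0 FPKM in OE and 91.1 and 92.7 FPKM in EV. The groups were well apart (log2 fold change -0.26, SE 0.0443, edgeR adjusted p = 5.78e-05), and MYC was called lower in all 14 alternatives. MAX, the partner of MYC, and its competitors MXI1 and MXD1 were not called.

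The windows around the RefSeq starts of the polyamine genes (GRCh38.p14, 250 bases before to 50 after each start) were searched for CACGTG, which reads the same on both strands. Of the 10 genes, 7 had a window, and 2 of these 7 held the motif, ODC1 and SRM. The windows of SMS and OAZ1, also called lower, held none, and neither did those of AMD1, OAZ2 and SAT1. Over all 27305 genes with windows, 8.77% held it. In ODC1 the motif stands at -29 and at 6 relative to a second RefSeq start (first base of the motif, with the start as base 1 and the base before it as -1), in the first intron of the main transcript (intron bounds from GENCODE release 29), and 28 bases part the copies. In SRM it stands once, at -199. In the sequences below, E-boxes are in capitals. They are shown for the called genes that hold the motif and for SAT1, the called gene that moved the other way and has none; the ODC1 stretch is chr2:10447983-10448120 on the minus strand, the SRM stretch chr1:11060019-11060268 on the minus strand and the SAT1 stretch chrX:23782923-23783172 on the plus strand, each written 5′ to 3′ along its gene.
ODC1: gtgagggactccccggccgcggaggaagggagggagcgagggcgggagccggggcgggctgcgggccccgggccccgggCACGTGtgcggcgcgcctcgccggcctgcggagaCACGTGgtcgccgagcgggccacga
SRM: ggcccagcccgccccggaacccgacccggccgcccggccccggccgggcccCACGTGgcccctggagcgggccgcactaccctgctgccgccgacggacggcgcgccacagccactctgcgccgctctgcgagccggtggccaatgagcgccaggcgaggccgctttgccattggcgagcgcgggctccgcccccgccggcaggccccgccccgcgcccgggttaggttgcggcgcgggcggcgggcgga
SAT1: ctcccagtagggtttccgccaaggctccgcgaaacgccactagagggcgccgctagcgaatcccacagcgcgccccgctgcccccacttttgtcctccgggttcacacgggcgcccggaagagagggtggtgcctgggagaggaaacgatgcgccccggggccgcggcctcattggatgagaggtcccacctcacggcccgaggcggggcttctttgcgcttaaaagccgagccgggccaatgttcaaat
The ODC1 stretch starts at the first base of intron 1, and the SRM and SAT1 stretches end at the base before the start. The core CAATAAA, a motif of posterior HOX proteins, searched on both strands, was in the windows of 0 of the 7 genes and of 4.93% of all genes. The GC box GGGCGG, searched on both strands, was in 6 of the 7, against 48.3% of all genes with windows. SAT1 was the exception. The 7 genes had 10 windows, and the shares of all genes were not matched for expression or windows per gene. These matches describe the letters in the windows, and no binding was measured. Whether the lower MYC level has a part in the changes of the polyamine genes was not tested.

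The genes around the pathway showed small changes in both directions, with SLC22A3 the clearest rise by p and EIF5A the clearest fall. Of 55 listed genes in 6 groups, 46 were tested, 6 rose, 7 fell and 33 were not called. The median log2 fold change was -0.05, against 0.00 over all genes tested. The 13 calls are 28.3% of the genes tested, against 16.0% of all genes. Of all genes with a mean of at least 1000 counts, 50.9% were called. EIF5A, SLC22A3 and AHCY are among the called genes that abundant. The listed genes were not matched for abundance, so the shares are given without a test.

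Transport was the group with the most rises. Of 13 listed transport genes, 8 were tested, 3 rose, 1 fell and 4 were not called, at a median log2 fold change of 0.19. Among all genes tested 7.91% were called higher, and the count over 8 genes is given without a test. SLC22A3, an organic cation transporter that can carry polyamines, had 189.6 and 190.5 FPKM in OE and 162 and 163 FPKM in EV. The libraries of a group nearly coincided and the groups were far apart (log2 fold change 0.21, SE 0.0322, edgeR adjusted p = 1.42e-05), and the call was made in all 14 alternatives. SLC12A8, a member of the cation-chloride cotransporter family linked to polyamine and amino acid transport, had 14.4 and 14.3 FPKM in OE and 11.9 and 10.3 FPKM in EV (log2 fold change 0.35, adjusted p = 0.00586). ATP13A3, a P-type ATPase of polyamine uptake, had 28.5 and 28.8 FPKM in OE and 25.8 and 25.2 FPKM in EV (log2 fold change 0.15, adjusted p = 0.0137). SLC3A2, the heavy chain of several amino acid transporters, fell, with 108 and 113 FPKM in OE and 118 and 119 FPKM in EV (log2 fold change -0.13, adjusted p = 0.0333). The calls of SLC12A8 (adjusted p = 0.130), ATP13A3 (0.138) and SLC3A2 (0.215) were lost without EV replicate 2, those of ATP13A3 (0.0747) and SLC3A2 (0.0842) also without EV replicate 1, and that of SLC3A2 (0.196) without OE replicate 1. The DESeq2 Wald test did not call SLC12A8 (adjusted p = 0.0521), ATP13A3 (0.0763) or SLC3A2 (0.0990), and neither did limma on FPKM. The counts of SLC12A8 and SLC3A2 include reads shared with other genes.

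**Figure D4:**
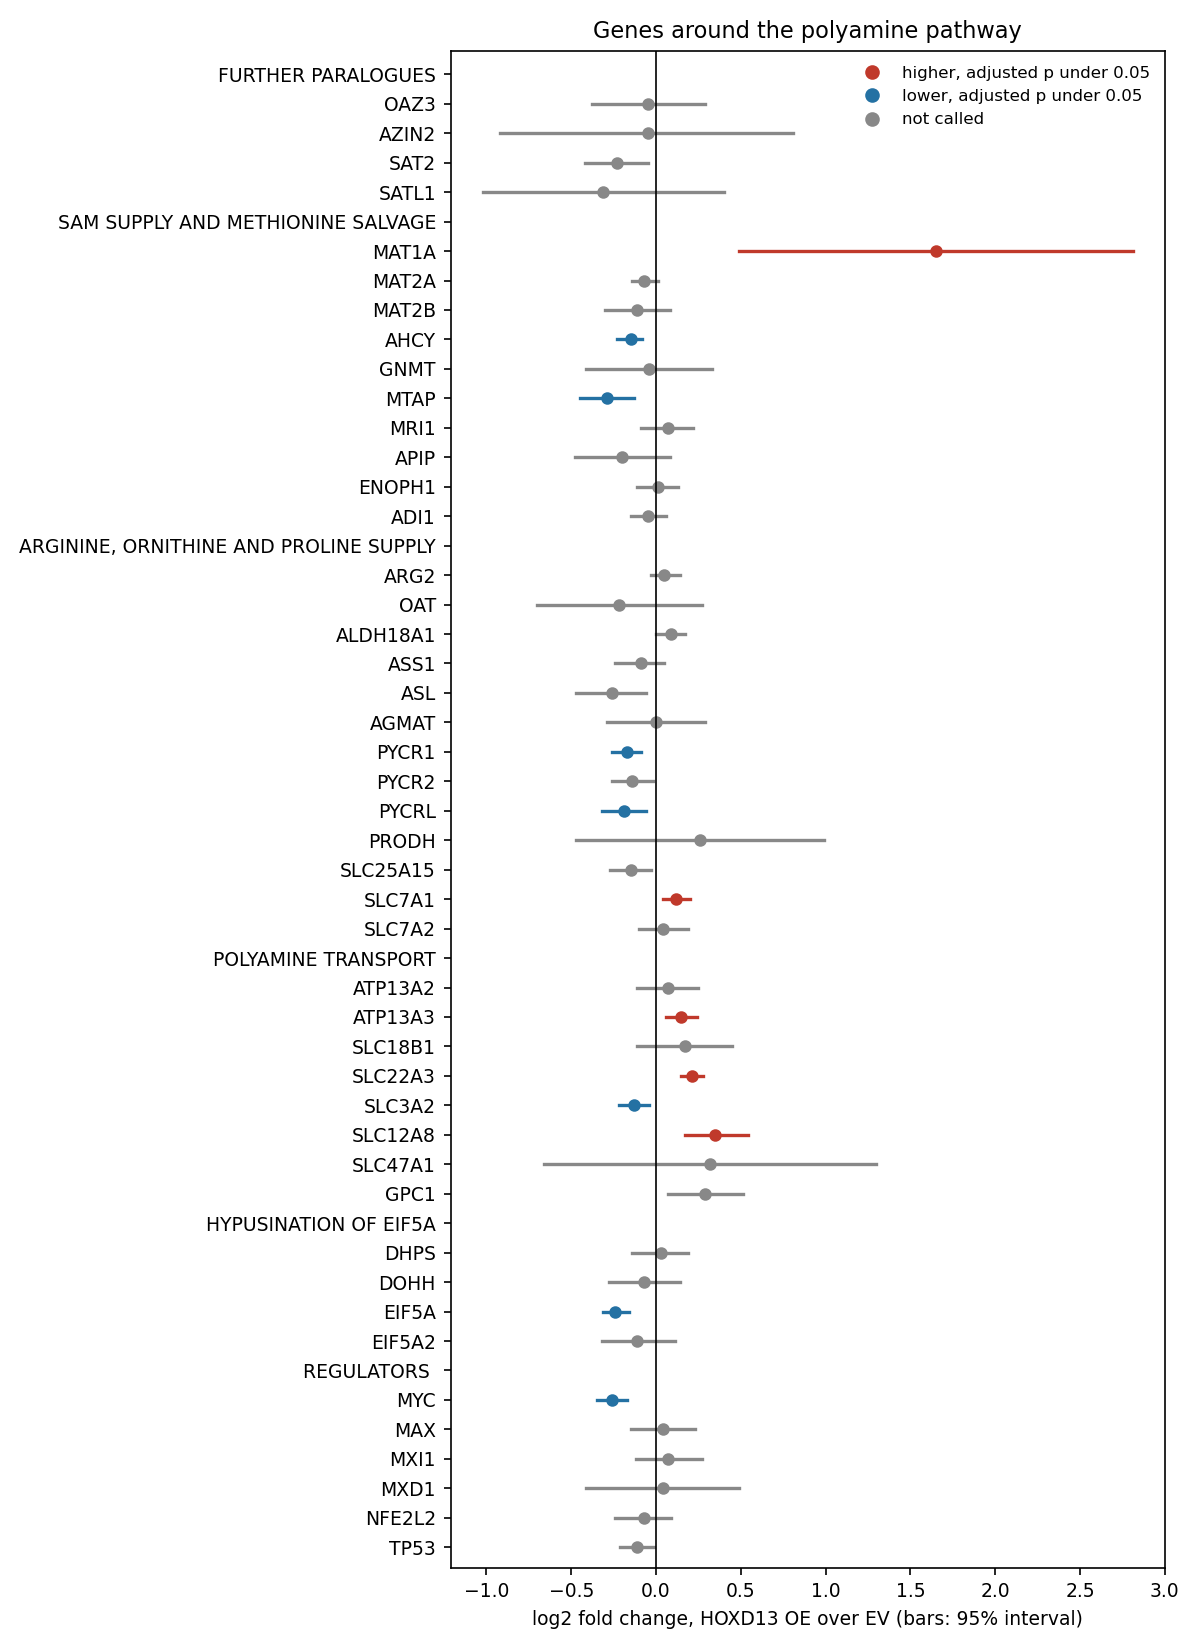
Log2 fold change of OE over EV (horizontal axis) for 45 of the tested genes around the polyamine pathway, by group; points are edgeR estimates, bars 95% intervals. Of those drawn, 5 are called higher (red) and 7 lower (blue), and the widest interval is that of MAT1A, from 0.49 to 2.81.

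The hypusination group, which uses spermidine to modify the translation factor eIF5A, held 1 called gene of 4 tested. EIF5A had 296 and 302 FPKM in OE and 344 and 352 FPKM in EV. The groups were apart by several times their spread (log2 fold change -0.24, SE 0.0353, edgeR adjusted p = 1.05e-05), and the call was made in all 14 alternatives, although EIF5A shares part of its reads with other genes. The enzymes of the modification, DHPS (log2 fold change 0.03) and DOHH (-0.07), and the second factor gene EIF5A2 (-0.11) were not called.

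Among 10 genes of S-adenosylmethionine supply and methionine salvage, all tested, 1 rose, 2 fell and 7 were not called. MTAP, which recycles the methylthioadenosine that polyamine synthesis releases, had 11.2 and 10.7 FPKM in OE and 12.8 and 13.8 FPKM in EV. It fell (log2 fold change -0.29, adjusted p = 0.00759), a call lost without EV replicate 2 (0.105), and MTAP also shares reads. AHCY, which clears S-adenosylhomocysteine, had 164 and 166 FPKM in OE and 184 and 179.7 FPKM in EV (log2 fold change -0.15, adjusted p = 0.00301; 0.0566 without EV replicate 1). MAT1A, the liver form of methionine adenosyltransferase, rose but had very few counts, 13 and 17 in OE and 5 and 3 in EV (log2 fold change 1.65, adjusted p = 0.0434). The MAT1A call was lost without any 1 of the 4 libraries (adjusted p = 0.0915 to 0.270). MAT2A, the form used outside the liver, had 106 FPKM in each OE library and 109 and 110.3 FPKM in EV; it was not called (adjusted p = 0.264).

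In the supply of arginine, ornithine and proline, 13 of 15 listed genes were tested, 1 rose, 2 fell and 10 were not called. PYCR1, which makes proline from the intermediate that ornithine also gives, had 119 and 122 FPKM in OE and 131 and 138 FPKM in EV (log2 fold change -0.17, adjusted p = 0.00346). Its relative PYCRL had 36.6 and 35.02 FPKM in OE and 38.1 and 43.0 FPKM in EV (log2 fold change -0.19, adjusted p = 0.0311). SLC7A1, the arginine importer, rose, with 47.6 and 46.2 FPKM in OE and 41.7 and 44.1 FPKM in EV (log2 fold change 0.12, adjusted p = 0.0360). Without EV replicate 2 the calls of PYCR1 (adjusted p = 0.0966) and PYCRL (0.453, log2 fold change -0.11) were lost, and PYCRL was also not called without OE replicate 2 (0.112). The SLC7A1 call was lost without OE replicate 1 (0.113) or EV replicate 1 (0.488, log2 fold change 0.07). The DESeq2 Wald test called PYCR1 (adjusted p = 0.0146) but not PYCRL (0.121) or SLC7A1 (0.115), and limma on FPKM called none of them. With trends of expression and length removed, edgeR did not call PYCR1 (adjusted p = 0.0659), PYCRL (0.0620) or SLC7A1 (0.0519). With GC added, PYCR1 (0.0323) and PYCRL (0.0434) were called. PYCRL shares reads with other genes. ARG2, the arginase of mitochondria, which makes ornithine, had 105 and 106 FPKM in OE and 100.0 and 101 FPKM in EV and was not called (adjusted p = 0.463).

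Of 5 further relatives of the enzymes and antizymes, 4 were tested and 0 were called with edgeR. SAT2, a relative of SAT1, had 40.6 and 39.0 FPKM in OE and 44.9 and 47.7 FPKM in EV (log2 fold change -0.23, edgeR adjusted p = 0.0801). Of the 4 genes, SAT2 was the 1 below 0.05 before adjustment, and neither the DESeq2 Wald test nor limma called it. SATL1 had 39 and 18 counts in OE and 26 and 34 counts in EV, and its groups overlapped (adjusted p = 0.624).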

How the data were processed

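RNA-seq measured oligo(dT)-enriched RNA of 4 LNCaP libraries. Per the submitters' processing notes the tools were Bowtie2 and RSEM, with builds hg18 and hg19 named; the sources used here give neither versions nor which build served for what. Per the file headers, each deposited library table holds an expected count, a length and an FPKM for each gene, and the authors' table of all genes holds the same FPKM (0 values differed by more than 0.0051). A gene of the table of all genes missing from a library table was set to 0; a listed symbol with no row anywhere was left out. Counts of the 10 polyamine genes were whole numbers.

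Expected counts were rounded and tested with edgeR 4.0.16 (R 4.3.3; TMM, factors 0.995 to 1.01, filterByExpr, robust quasi-likelihood fit, OE minus EV), which left 14112 of 18743 genes; the biological coefficient of variation was 2.70%. The SE is the absolute log2 fold change over the square root of F. FPKM are printed as deposited; whether groups overlap was counted over all genes on TMM-scaled CPM. With 2 libraries a group, the smallest exact permutation p is 0.333, so no such test was run. DESeq2 1.42.0, limma 3.58.1 and trends fitted with mgcv 1.9.3 served as alternatives (limma on genes with at least 1 FPKM in 2 libraries); the trend with GC (known for 97.5% of tested genes) was chosen after the data were seen. The members and lists were chosen with earlier results of these data known. Named are all 10 members, HOXD13 and, per list, up to 4 called genes or, with none called, the 2 with the smallest p, and the 3 profiles nearest to ODC1 and to SAT1; genes named beside these (MAX, MXI1, MXD1, DHPS, DOHH, EIF5A2, MAT2A, ARG2, markers) were chosen after their values were seen. Promoter windows are RefSeq's. AZIN1, SMOX and PAOX had no window. Of the genes around the pathway, 1 is counted but not reported here.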

Additional observations from a re-analysis of the deposited data

How the results depend on the processing

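The log2 fold changes of ODC1, AMD1, SRM, SMS, OAZ1 and SAT1 kept their direction in all alternatives, and no called result reversed. The alternatives reuse the same libraries, and the groups of these genes did not overlap, so their direction could hardly turn. Among all genes tested, 55.0% had groups that did not overlap. The log2 fold changes of OAZ2, AZIN1, PAOX and SATL1, never called, lay on both sides of 0. That of SATL1 ran from -0.95 without OE replicate 1 to 0.12 without OE replicate 2. The replicate numbers are shared by the groups in the labels, and no pairing was assumed in the main test. Same-numbered libraries deviated together with a correlation of 0.0703 over the genes tested. Counting error is part of these deviations, so the value cannot decide whether the libraries are paired. With the replicate block, 1226 genes were higher and 1297 lower. Of the polyamine genes 1 was then higher and 5 lower, and AMD1 was added to the calls (edgeR adjusted p = 0.0385). Of the 10 polyamine genes (1 higher, 4 lower), the DESeq2 Wald test called 0 higher and 2 lower, limma on log2(FPKM + 1) and on log2(FPKM + 0.1) each 0 higher and 1 lower, an adjusted p under 0.01 0 higher and 2 lower, and removal of expression, length and GC trends 1 higher and 2 lower; leaving out 1 library gave 0 to 1 higher and 2 to 5 lower. SMS was not called with expression and length trends removed (adjusted p = 0.0956), nor with GC added (0.0863). Of the genes around the pathway (6 higher, 7 lower), the DESeq2 Wald test called 2 higher and 4 lower, limma with either pseudocount 1 higher and 2 lower, removal of expression and length trends 3 higher and 4 lower, removal with GC 3 higher and 6 lower, and an adjusted p under 0.01 2 higher and 5 lower; leaving out 1 library gave 3 to 6 higher and 3 to 6 lower. Over all genes (1116 higher, 1144 lower), the DESeq2 Wald test called 467 higher and 598 lower, limma 264 higher and 162 lower with a pseudocount of 1 and 248 and 147 with 0.1, and an adjusted p under 0.01 left 647 higher and 633 lower. Leaving out 1 library gave 751 to 927 higher and 714 to 1064 lower, with the lowest counts of falls without EV replicate 1 (714) and EV replicate 2 (759). The causes of these differences were not tested, beyond the fewer samples and stricter threshold by construction. Size factors of DESeq2, a floor of 50 mean counts, testing without any filter, and unrounded counts left each of these counts within 1.5 times its value. SMOX and PAOX rest on 28 to 63 counts per library, which limits what could be seen.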

Other observations

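Over the 4 libraries, the profiles nearest to that of ODC1 among 9702 other genes averaging 5 FPKM or more were those of BAG3, EIF4G2 and COQ9, with Euclidean distances of 0.0108, 0.0118 and 0.0123 on centred log2 CPM. EIF4G2, a translation initiation factor gene, had 313 and 301 FPKM in OE and 341 and 342 FPKM in EV (log2 fold change -0.17, edgeR adjusted p = 5.42e-05), and BAG3 and COQ9 were not called (0.0866 and 0.0557). For SAT1 they were SLC38A10, VPS54 and ACSL1, at 0.0172, 0.0186 and 0.0212. ACSL1, which activates long-chain fatty acids, had 76.8 and 74.4 FPKM in OE and 67.4 and 62.3 FPKM in EV (log2 fold change 0.21, adjusted p = 0.000774). SLC38A10 was called higher (log2 fold change 0.23, adjusted p = 0.000837), and VPS54 was not called (0.161). With 4 libraries many genes lie this close, so the distances only describe these libraries.

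The gene length that RSEM gives is a mean over the transcripts of a gene, so a shift between transcripts of unequal length would move it. For SAT1, which has a coding and a non-coding transcript in the tables, it was 1096 and 1104 bases in OE and 1093 and 1104 bases in EV, and the groups overlapped. For SMOX, with 5 transcripts, it was 2137 and 2249 bases in OE and 2179 and 2090 bases in EV, which also overlapped. The lengths of AMD1 did not overlap, at 3416.39 and 3417.87 bases in OE and 3419.75 and 3419.9 bases in EV. A shift between its transcripts was not tested.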
